A study of Mus musculus with 4 samples.

Results

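The ring is the tissue that lay close to collagen-rich tissue in mouse brain slices 21 days after injury (dpi) but held almost no collagen transcript itself. It was read from Visium slides, on which barcoded spots bind the transcripts of the section above, and every spot covers a small patch that can hold several cells of different types. Spots with at least 5 unique molecular identifiers (UMIs, 1 per captured molecule) of Col1a1 in 10000 UMIs were called core. Ring spots had fewer than 1 Col1a1 UMI per 10000 and lay 1 to 3 steps of the hexagonal spot lattice from a core spot. Distant spots had the same low Col1a1 level and lay 6 or more steps from every core spot of their slice. Among spots with at least 1000 UMIs the rule found 493 ring spots, which is 10.6% of the 4672 spots over tissue at 21 dpi, in a series of 9340. The slices contributed 156, 72, 140 and 125 ring spots, against 840 core and 1646 distant spots in all.

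After brain injury, astrocytes at the border of the damage take up a reactive state, thicken their intermediate filaments and form the glial scar, which separates the fibrotic lesion from surviving tissue. Microglia and infiltrating myeloid cells clear debris and lipid from dying cells and myelin in the same zone. Complement components made by both cell types tag debris and synapses for removal.

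The slices came from mice with photothrombotic (PT) injury of the cortex, in which a light-activated dye clots cortical vessels. WT mice gave 2 slices on 1 capture area, and Cthrc1(creER); R26(DTA) mice, called deleter mice, gave 2 slices on another, with 1 slice per mouse. In deleter mice an inducible Cre made from the Cthrc1 gene switches on diphtheria toxin in cells that express Cthrc1, and the authors set these slices aside after a first clustering because they could not detect the deletion. Genotype and capture area cannot be told apart, and neither ages nor a tamoxifen schedule for these animals are in the labels. Slices are numbered here within each genotype by position only, and sets of 4 values are given in the order WT slice 1, WT slice 2, deleter slice 1 and deleter slice 2.

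Ring, core and distant spots were chosen by their measured Col1a1 level, so that level is a description. It was 0.327, 0.295, 0.343 and 0.295 per 10000 in the ring, 0.182 to 0.204 in distant tissue and 21.3 to 41.5 in the core. The ring spot nearest the limit had 0.9991 Col1a1 UMIs per 10000 and the nearest spot outside had 1.001, while the limit of the core fell between 4.99 and 5.018. In all, 1257 spots lay 1 to 3 steps from a core spot, and 764 of them had 1 to 5 Col1a1 UMIs per 10000 and belonged to no region. The ring is therefore the collagen-poor share of the tissue near core spots.

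Core spots also lay along the tissue edge. Layers were counted from the nearest array position without tissue of the slice, which need not be the brain surface. Between 39.8% and 52.4% of core spots lay in the outer 2 layers of their slice, and the largest connected group held 55.9% to 91.1% of the core spots of a slice. At the brain surface the meninges also express Col1a1. Only 150 of the 493 ring spots (30.4%) lay within 3 steps of that largest group, with 30, 33, 57 and 30 spots in the 4 slices. The other 343 lay beside small core groups, many of them along the tissue edge. Ring spots lay a median of 4 layers under the tissue edge in every slice and distant spots 7 to 15 layers. Results were therefore also computed with the ring of the largest core group alone and with distant spots cleared of markers of striatum, hippocampus, thalamus and choroid plexus.

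**Figure D1:**
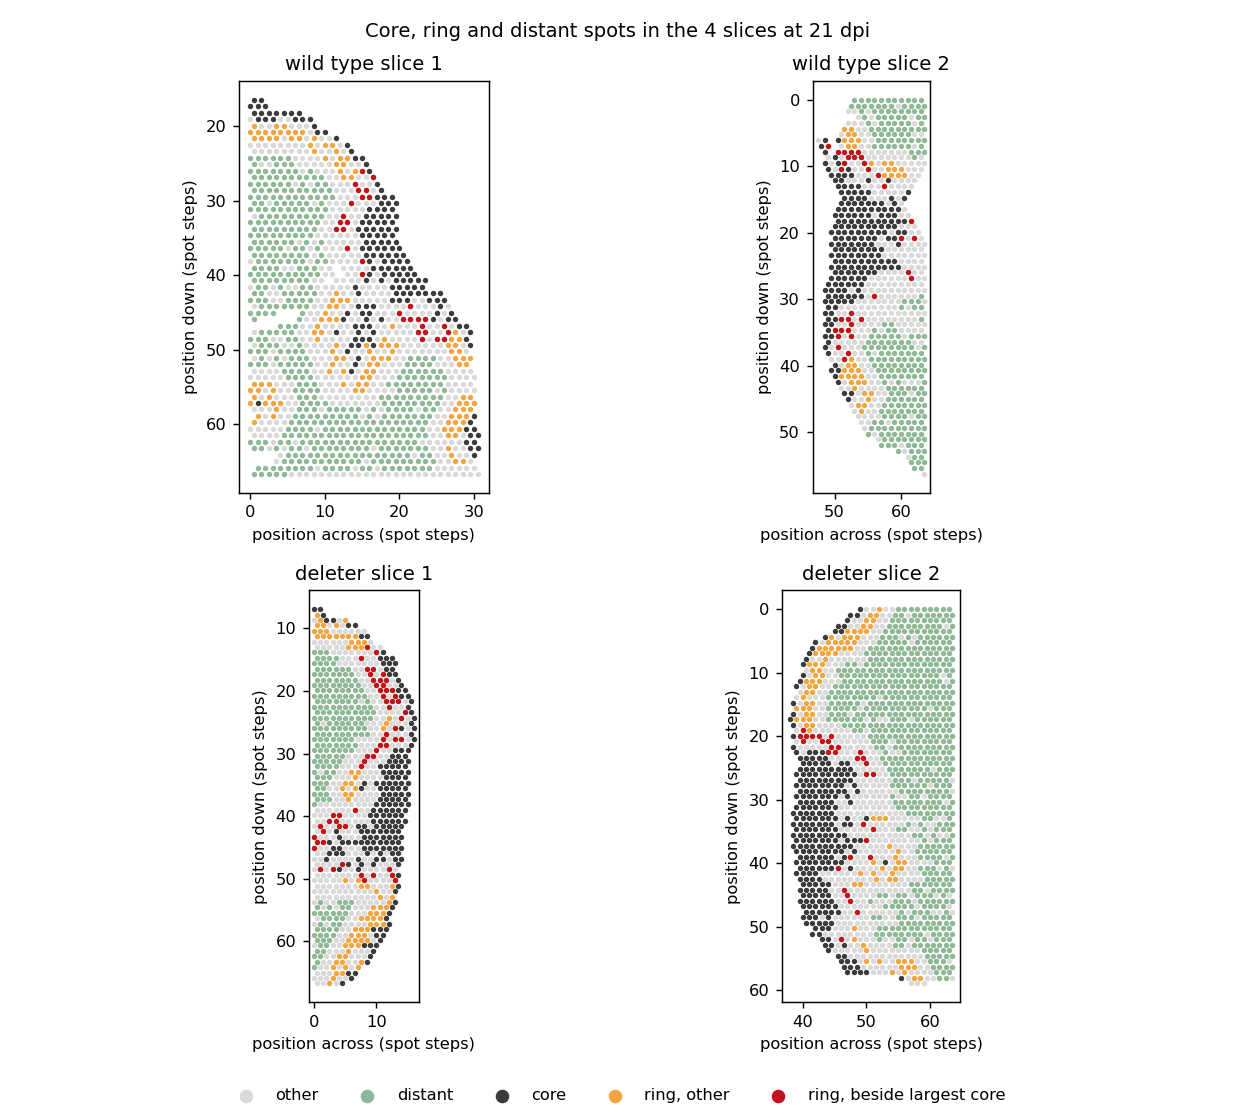
Positions of all spots in the 4 slices at 21 dpi, with both axes in spot steps of the array. Core spots are black, ring spots within 3 steps of the largest core group red, other ring spots orange, distant spots green and the remaining tissue grey. Orange spots follow the tissue edge in most slices and outnumber red ones by 343 to 150.

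The ring was slightly shallower in depth. The median UMI count per spot was 12317, 11484, 12066.5 and 13161 in the ring and 13462, 12629, 14669.5 and 15014 in distant tissue. From distant tissue to ring it decreased by 1686 on average and in 4 of 4 slices, which gives the smallest p that an exact two-sided sign-flip test can reach with 4 slices, above the 0.05 threshold. The mitochondrial share of UMIs was 12.9% ± 2.37 in the ring and 14.7% ± 2.24 in distant tissue (SD, n = 4), also lower in 4 of 4 slices with the same p. UMIs were summed over the ring and over the distant spots of each slice, from 848005 UMIs in the ring of WT slice 2 to 10816564 in the distant tissue of deleter slice 2, and the pairs of sums were compared with edgeR. In such sums, fewer cells of a type and less RNA per cell cannot be told apart.

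Of 12904 genes tested, 486 (3.77%) differed between ring and distant tissue at an adjusted p of 0.05 in edgeR. At an unadjusted p under 0.05 by edgeR, 1198 genes were higher in the ring and 1012 lower. At the adjusted threshold 322 genes (2.5%) were higher in the ring and 164 (1.27%) lower. Genes of reactive astrocytes, of complement and of lipid-laden phagocytes led those that were higher, together with genes of upper cortical layers. Genes of the striatum and of deep cortical layers led those that were lower. The count depended on the slices used, with 148 genes without WT slice 2, 157 without deleter slice 1, 306 without deleter slice 2 and 531 without WT slice 1. With the ring of the largest core group alone, 2361 of 12569 genes (18.8%) passed, and with distant spots cleared of other regions' markers 1550 of 12525 (12.4%). Among the 322 genes higher in the ring, 276 were also called beside the largest core group, where 10.6% of all genes were higher and 8.17% lower, and 314 against the cleared distant tissue, where 7.26% were higher and 5.12% lower. Of the 164 lower genes, 141 and 117 were. Fewer of the 322 were called again in other settings. With distant spots at most 10 layers deep, 75 of the 322 and 38 of the 164 were, when 78 of all 12315 genes tested were higher and 42 lower. With a core of at least 10 Col1a1 UMIs per 10000, 120 and 130 were (396 of 12772 higher and 412 lower). With both regions 3 to 8 layers deep, 146 and 59 were (166 of 11262 higher and 83 lower). With only ring spots near core spots more than 3 layers deep, 215 and 12 were called again (391 of 12645 higher and 50 lower).

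Many reactive astrocyte genes were higher in the ring. Which cells made each transcript was not tested, and C3 was counted in the complement list. C3, the central component of complement and a marker of reactive astrocytes (chromosome 17, 57203970 to 57228136, minus strand, GRCm38, the build also called mm10), reached 1.95, 0.436, 2.64 and 1.49 UMIs per 10000 in the ring. Its distant levels were 0.511, 0.0457, 0.228 and 0.223. Each slice had more C3 in its ring than in its distant tissue, although the ring of WT slice 2 stayed under the distant level of WT slice 1. The fitted difference was 6.39-fold (log2 2.68, SE 0.22, edgeR adjusted p = 0.00031) and remained past the threshold with each slice left out, between 2.40 and 3.06 on the log2 scale. Lcn2, which encodes the iron-scavenging lipocalin 2 (chromosome 2, 32384633 to 32388252), followed the same order of slices with 3.86, 0.46, 4.59 and 1.77 against 1.00, 0.146, 0.324 and 0.279 (5.85-fold, log2 2.55, SE 0.27, edgeR adjusted p = 0.001). For C3 and Lcn2 WT slice 2 was lowest in both regions.

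The filament genes of the glial scar had another order. Gfap, the intermediate filament that defines reactive astrocytes, was at 4.61, 7.18, 8.42 and 3.92 UMIs per 10000 in the ring and at 3.52, 0.68, 1.60 and 1.96 in distant tissue. Vim, another filament of these cells, was at 2.81, 3.83, 5.65 and 2.95 against 2.01, 0.524, 0.858 and 1.09. WT slice 2 thus had a high ring and the lowest distant level, while in WT slice 1 ring and distant levels were close. Gfap rose 3.22-fold (log2 1.69, SE 0.38, edgeR adjusted p = 0.034) and Vim 3.43-fold (log2 1.78, SE 0.32, edgeR adjusted p = 0.014). Neither kept its call without WT slice 2 or without deleter slice 1, where adjusted p reached 0.14 for Gfap and 0.072 for Vim. Serpina3n, a secreted protease inhibitor, was 2.78-fold higher (log2 1.47, SE 0.28, adjusted p = 0.018) and S100a6, a calcium-binding protein, 2.75-fold (log2 1.46, SE 0.27, adjusted p = 0.015), both by edgeR and in 4 of 4 slices. Both lost their call without WT slice 2 (adjusted p of 0.086 and 0.073), and S100a6 also without deleter slice 1.

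Over the whole reactive astrocyte list, 16 of 31 measured genes were higher in the ring and 1 was lower, with a median log2 difference of 1.26 against -0.01 over all genes tested. Those higher were Steap4, Lcn2, Tgm1, Cd44, Vim, Gfap, Timp1, Osmr, Chil1, Cp, Ggta1, Serpina3n, S100a6, Srgn, Id3 and Lgals1. Timp1 and Id3 each kept their call in 1 of 4 fits with a slice left out (edgeR adjusted p up to 0.096 and 0.2), and Osmr in 3 (up to 0.065). Steap4, a metalloreductase, was 6.88-fold higher (log2 2.78, SE 0.35, edgeR adjusted p = 0.0029) at a low level of 0.0354 to 0.526 per 10000 in the ring. Amigo2, an adhesion molecule of the list, was lower (log2 -1.44, SE 0.31, edgeR adjusted p = 0.029), and lost its call without WT slice 1 or deleter slice 2 (adjusted p up to 0.31). Cryab, among the members with most UMIs, had negative estimates with each slice left out (log2 -0.54 to -0.15) and was called in 0 of these 4 fits. With a core of at least 10 Col1a1 UMIs per 10000 it was called lower (log2 -0.97, edgeR adjusted p = 0.0024). Summed over the list, the level was 19.9 to 36.3 UMIs per 10000 in the ring, 7.61 to 17.3 in distant tissue and 60.1 to 80.4 in the core, and these 3 ranges did not overlap. Beside the largest core group alone, 26 of 31 members were higher and none lower, when 10.6% of all genes were higher there.

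**Figure D2:**
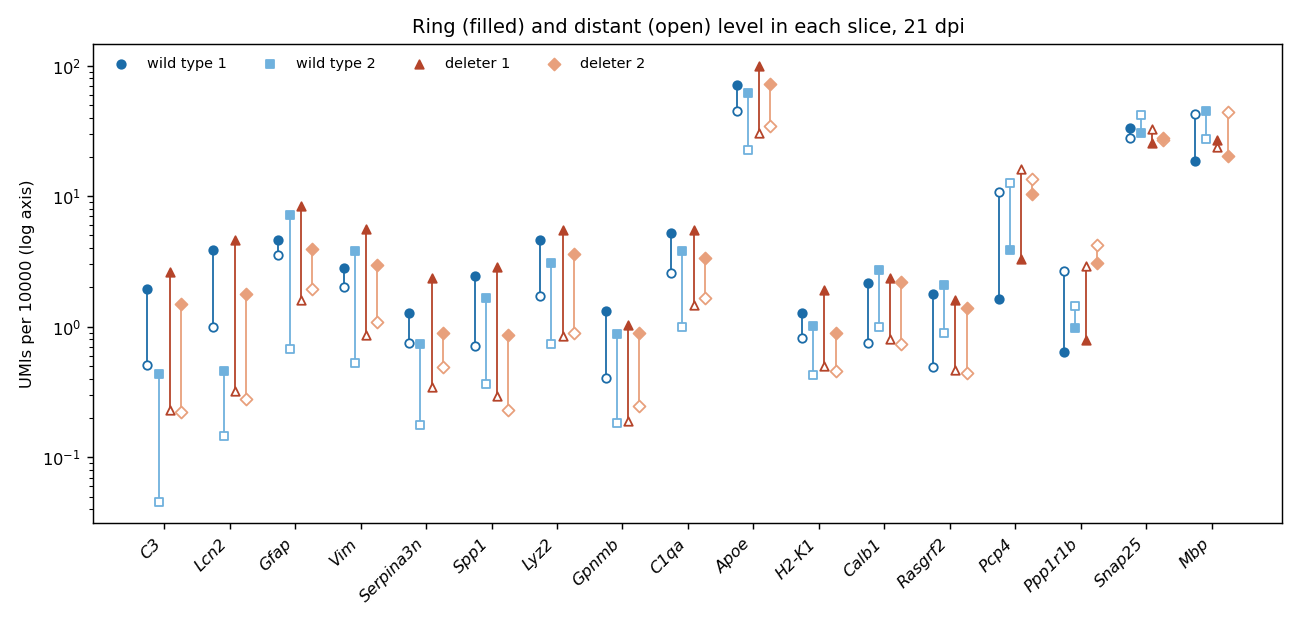
Level of named genes in UMIs per 10000 on a log axis, with filled symbols for the ring and open symbols for distant tissue of the same slice, joined by a line, and 1 colour and symbol per slice. C3, Lcn2, Spp1, Lyz2, Gpnmb and Apoe are higher in the ring in all 4 slices, Pcp4 and Ppp1r1b lower, and the lines of Snap25 and Mbp point up in some slices and down in others.

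Genes of astrocytes at rest moved less. Of 23 homeostatic astrocyte genes, 2 were higher and none lower, with a median log2 difference of 0.13. Aqp4, the water channel of astrocyte endfeet, was at 2.05, 2.04, 2.37 and 1.36 UMIs per 10000 in the ring against 1.15, 0.616, 0.706 and 0.847 (2.25-fold, log2 1.17, SE 0.17, edgeR adjusted p = 0.0055). All ring values lay above all distant values. Slc1a3, a glutamate transporter, was 1.44-fold higher (log2 0.52, SE 0.09, edgeR adjusted p = 0.013) and lost its call without WT slice 2 or deleter slice 1. Slc1a2, the main astrocytic glutamate transporter, stood at 17.8 per 10000 in both regions (log2 -0.05, SE 0.08, edgeR adjusted p = 0.8). Aldoc, a glycolytic enzyme of astrocytes, was at 6.68 to 8.5 in the ring and 6.12 to 7.45 in distant tissue (adjusted p = 0.69), and Glul, glutamine synthetase, at 5.34 to 7.68 against 4.88 to 6.56 (adjusted p = 0.95).

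Genes of phagocytes were higher as well. Lyz2, the lysozyme of myeloid cells, was at 4.59, 3.05, 5.51 and 3.59 UMIs per 10000 in the ring and at 1.72, 0.735, 0.845 and 0.902 in distant tissue, so that no ring value reached down to a distant value. It was 3.94-fold higher (log2 1.98, SE 0.16, edgeR adjusted p = 0.00031). Gpnmb, a membrane glycoprotein of lipid-laden phagocytes, was at 1.31, 0.884, 1.03 and 0.896 against 0.406, 0.183, 0.188 and 0.249 (3.9-fold, log2 1.96, SE 0.14, edgeR adjusted p = 0.00012). Spp1, osteopontin, was at 2.46, 1.65, 2.84 and 0.872 against 0.707, 0.366, 0.296 and 0.232 (4.61-fold, log2 2.21, SE 0.20, edgeR adjusted p = 0.00046). Both kept their call with every slice left out, Gpnmb between 1.85 and 2.10 and Spp1 between 1.90 and 2.39 on the log2 scale.

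Apoe, the main lipid carrier of the brain, stood at 71.2, 61.7, 99.6 and 72.6 UMIs per 10000 in the ring and at 44.6, 22.6, 30.3 and 34.6 in distant tissue, a 2.26-fold difference (log2 1.18, SE 0.14, edgeR adjusted p = 0.0018). The disease-associated phagocyte list had 20 of 28 members higher and none lower, with a median log2 difference of 1.19. Its members Ctsd, a lysosomal protease, and Trem2, a lipid receptor of microglia, rose 2.08-fold and 2.44-fold (edgeR adjusted p = 0.0024 and 0.001), and Cst7, a lysosomal protease inhibitor, 5.4-fold (adjusted p = 0.0024). Fth1, the ferritin heavy chain, did not pass over the whole ring (log2 -0.01, SE 0.15, adjusted p = 0.99). The summed list ran from 162 to 227 per 10000 in the ring and from 86.5 to 146 in distant tissue. Apoe is a member and made up 71.2, 61.7, 99.6 and 72.6 of 187, 170, 227 and 162 in the ring. Sums of this list further on also include Apoe, and which cells made it was not tested.

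Of 16 homeostatic microglia genes, 8 were higher and none lower (median log2 0.53). Csf1r, the receptor on which microglia depend, was 1.74-fold higher (adjusted p = 0.0095) and Cx3cr1, the fractalkine receptor, 1.81-fold (adjusted p = 0.042), both by edgeR. The summed level of this list was 55.0 to 66.0 per 10000 in the ring and 37.2 to 58.8 in distant tissue, so its ranges overlapped. Of the border macrophage list only 4 of 12 genes passed the filter on low counts. By edgeR, Fn1, fibronectin, was 2.62-fold higher (adjusted p = 0.0024) and Ms4a7 3.04-fold (adjusted p = 0.019), while Mrc1 (log2 0.65, adjusted p = 0.41) and Pf4 (log2 0.34, adjusted p = 0.81) did not pass. The paper counts Fn1 among myofibroblast markers, and which cells made it in the ring was not tested. Cx3cr1 kept its call in 1 of 4 fits with a slice left out, that without WT slice 1 (adjusted p up to 0.17 in the others), Ms4a7 only without deleter slice 1 (up to 0.089), and Csf1r in all but that without WT slice 2 (0.057). Cst3 and Sparc were among the homeostatic microglia genes with most UMIs. Cst3 was called in 0 of these 4 fits (log2 0.04 to 0.31, edgeR adjusted p up to 0.94) and Sparc in 1 (0.47 to 0.78, up to 0.2).

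Of 17 measured complement genes, 10 were higher in the ring and none lower (median log2 1.29). Among them were C3, C1s1, C3ar1, Serping1, Itgb2, Itgam and C1qa, C1qb and C1qc, the 3 chains of C1q, which starts the classical pathway. C1s1 kept its call in 1 of 4 fits with a slice left out (edgeR adjusted p up to 0.15), and Serping1 in 3 (up to 0.055). C1qa was at 5.26, 3.77, 5.5 and 3.34 UMIs per 10000 in the ring and at 2.59, 1.00, 1.48 and 1.66 in distant tissue. Its ranges did not overlap, and it was 2.62-fold higher (log2 1.39, SE 0.16, edgeR adjusted p = 0.0018). C3ar1, a receptor for a fragment of C3, was 3.15-fold higher (log2 1.66, SE 0.29, edgeR adjusted p = 0.013; 0.057 without WT slice 2). Clu, clusterin, an inhibitor of the terminal complex that astrocytes also make, was at 8.82, 13.5, 14.8 and 11.1 against 11.1, 6.85, 9.02 and 9.28 (log2 0.35, SE 0.17, adjusted p = 0.31), with WT slice 1 lower in the ring.

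The glial and phagocyte differences also depended on where the core limit was set. With a core of at least 10 Col1a1 UMIs per 10000, Spp1 (log2 1.36, adjusted p = 0.011) and Gpnmb (log2 1.32, adjusted p = 0.0036) still passed, but C3 (log2 1.33, adjusted p = 0.13), Lcn2 (1.13, 0.17), Gfap (0.43, 0.52), Apoe (0.41, 0.22), Lyz2 (0.68, 0.12) and C1qa (0.68, 0.11) did not, all by edgeR.

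Some antigen presentation genes were higher. Of 14 class I and processing genes, 4 were higher and none lower (median log2 0.92). B2m, the class I light chain, was at 5.08, 4.99, 6.38 and 3.5 UMIs per 10000 against 3.52, 2.27, 2.52 and 2.22 (1.81-fold, log2 0.86, SE 0.13, edgeR adjusted p = 0.0056). H2-K1 and H2-D1, heavy chains with closely related sequences whose reads can be hard to assign, were 2.19-fold and 1.99-fold higher (edgeR adjusted p = 0.0073 and 0.0058). Tap1, which pumps peptides to class I, was 3.27-fold higher (adjusted p = 0.011). Of 6 class II genes 3 were higher, namely Cd74, the invariant chain (2.2-fold, adjusted p = 0.0053), H2-Aa (2.57-fold, adjusted p = 0.0095) and H2-Ab1 (2.53-fold, adjusted p = 0.034), the last in 3 of 4 slices and called in 1 of 4 fits with a slice left out, that without WT slice 2 (adjusted p up to 0.11 in the others).

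Among 29 measured interferon-stimulated genes Ifitm3 was the only one that passed (2.06-fold, log2 1.04, SE 0.25, edgeR adjusted p = 0.044), although all 29 had positive estimates and the median log2 difference was 0.78. Beside the largest core group alone, 22 of 27 were called higher, when 10.6% of all genes were. Ifitm3 lost its call without WT slice 2, without deleter slice 1 or without deleter slice 2, with adjusted p from 0.061 to 0.19. Of 14 T cell genes 3 passed the filter on low counts, and Cd3d, Cd3e, Cd3g and Cd8a were not among them. Against the core 9 of the 14 were tested, of which 7 were lower in the ring. Trbc2, a constant segment of the T cell receptor, was lower in the ring (0.0522, 0.342, 0.225 and 0.196 against 0.451, 0.823, 0.706 and 0.327 per 10000, log2 -1.64, SE 0.25, edgeR adjusted p = 0.0076). The whole T cell list summed to 0.633, 0.899, 0.833 and 0.477 per 10000 in distant tissue, so Trbc2 was most of it there. Whether Trbc2 reads T cells in these spots was not tested. Of 6 plasma and B cell genes, Igkc was higher (log2 1.37, SE 0.33, adjusted p = 0.046) with a ring below distant tissue in WT slice 1, and Ighm was lower (log2 -1.43, SE 0.21, adjusted p = 0.0053). Igkc kept its call in 1 of 4 fits with a slice left out, that without WT slice 1 (adjusted p up to 0.23 in the others), and its log2 difference was -0.83 with a core of at least 10 Col1a1 UMIs per 10000. Ms4a1, which encodes CD20 of B cells, had 0 of 6365637 UMIs in the ring, which allows up to 0.00471 per 10000 by counting error alone.

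Cortical layer genes split by the layer they mark. Of 21 measured genes, 5 were higher in the ring and 8 lower. Those higher were the upper-layer genes Otof, Rasgrf2, Calb1, Cux2 and Lamp5, and those lower the deep-layer genes Etv1, Tle4, Hs3st4, Bcl11b, Fezf2, Syt6, Foxp2 and Pcp4. Otof and Hs3st4 each kept their call in 1 of 4 fits with a slice left out (edgeR adjusted p up to 0.23 and 0.18), and Foxp2 in 3 (up to 0.1). Calb1, the calcium buffer calbindin, varied little between slices, with 2.14, 2.74, 2.36 and 2.19 UMIs per 10000 in the ring and 0.754, 0.994, 0.811 and 0.731 in distant tissue (2.78-fold, log2 1.47, SE 0.09, edgeR adjusted p = 7e-05). Rasgrf2, an exchange factor of upper-layer neurons, was at 1.77, 2.1, 1.61 and 1.39 against 0.492, 0.899, 0.463 and 0.444 (3-fold, log2 1.58, SE 0.12, adjusted p = 0.00023). For both genes the lowest ring value lay above the highest distant value. Vip, a peptide of upper-layer interneurons, was 2.39-fold higher (log2 1.26, SE 0.11, adjusted p = 0.00046).

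The layer differences were also computed by depth under the tissue edge. In the alternative that kept only the 193 ring spots near core spots more than 3 layers deep, the log2 difference was 0.03 for Calb1, -0.36 for Rasgrf2, -0.61 for Lamp5 and -1.42 for Vip, while it was 3.82 for C3 and 2.98 for Gpnmb. With ring and distant spots both limited to 3 to 8 layers under the edge, it was 1.43 for Rasgrf2, 1.38 for Calb1, 0.88 for Lamp5, 1.70 for Cux2 and 1.40 for Vip, each called with an edgeR adjusted p of 0.0012 or less, and 2.58 for C3, 1.94 for Gpnmb and 1.91 for Gfap, and 249 genes passed. Deep-layer genes near the deep core spots did not pass, with Pcp4 at -1.21 (edgeR adjusted p = 0.17), Foxp2 at -0.94 (0.34), Fezf2 at -0.85 (0.074) and Hs3st4 at -0.16 (0.78). At 3 to 8 layers Pcp4 (-1.66, adjusted p = 8e-05) and Fezf2 (-1.66, 0.0048) passed, and Foxp2 (-1.66, 0.091) and Hs3st4 (-0.51, 0.32) did not. Both alternatives were chosen after the map had been seen.

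Of 11 striatal genes, 9 were lower in the ring and none higher (median log2 -1.55). Ppp1r1b, the dopamine signalling protein DARPP-32, was at 0.64, 0.979, 0.792 and 3.05 UMIs per 10000 in the ring and at 2.68, 1.43, 2.94 and 4.23 in distant tissue (2.45-fold lower, log2 -1.29, SE 0.24, edgeR adjusted p = 0.018). Penk and Tac1, precursors of the striatal peptides enkephalin and substance P, were 2.94-fold and 3.31-fold lower (edgeR adjusted p = 0.021 and 0.019), and Pde10a, Adcy5, Scn4b, Pde1b and Pcp4l1 were lower by 1.91 to 2.75 times. With distant spots cleared of other regions' markers, Penk (log2 0.55), Pde10a (0.13), Ppp1r1b (0.19) and Pde1b (0.05) turned direction, and Tac1 (log2 -0.27, adjusted p = 0.44), Scn4b (-0.62, 0.16), Adcy5 (-0.32, 0.2) and Pcp4l1 (-0.29, 0.3) lost their call. That setting removes distant spots by their striatal and choroid plexus markers, which by construction lowers these genes in distant tissue. With a slice left out of the whole comparison, Pde10a kept its call only without deleter slice 2 (adjusted p up to 0.15), Penk, Tac1 and Scn4b lost theirs without WT slice 2 or deleter slice 1 (up to 0.078, 0.082 and 0.079), and Ppp1r1b, Adcy5 and Pde1b without deleter slice 1 (0.075, 0.061 and 0.11). Pcp4, a calmodulin regulator of deep-layer and striatal neurons, was at 1.63, 3.84, 3.28 and 10.5 against 10.7, 12.6, 16.1 and 13.5 (log2 -1.82, SE 0.30, adjusted p = 0.0095), with deleter slice 2 near its distant level. It kept its call against the cleared distant tissue (log2 -1.52, adjusted p = 0.0051) and lost it without WT slice 2 (adjusted p = 0.057). Kl and Clic6, genes of the choroid plexus, were the 2 called of 10 in their list (log2 -1.65 and -1.59, lower in the ring in 2 and 3 of 4 slices), and they too turned direction against the cleared distant tissue (1.5 and 1.83). Kl lost its call without WT slice 1 or deleter slice 2 (adjusted p up to 0.13), and Clic6 without WT slice 1, WT slice 2 or deleter slice 2 (up to 0.096). Of 8 hippocampal genes 2 were higher, and of 8 thalamic genes edgeR called 0 (2 higher at an unadjusted p under 0.05). Of 13 mitochondrially encoded genes 1, mt-Cytb, was lower.

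Few excitatory neuron, receptor and immediate early genes passed over the whole ring, when 2.5% of all genes tested were higher and 1.27% lower. Inhibitory neuron genes were called at a larger share, with 1 of 14 higher and 4 lower. Of 26 excitatory neuron genes 1 was higher and 1 lower, with a median log2 difference of -0.15, and the summed level was 156 to 192.0 UMIs per 10000 in the ring and 156 to 200.3 in distant tissue. Snap25, a presynaptic fusion protein, was at 33.4, 30.4, 25.7 and 27.8 against 27.7, 41.5, 32.6 and 26.9 (log2 -0.17, SE 0.12, edgeR adjusted p = 0.52). Camk2a, a postsynaptic kinase, was 1.31-fold higher (adjusted p = 0.03) and Nefh, a heavy neurofilament chain, 1.77-fold lower (adjusted p = 0.015). Of 14 inhibitory neuron genes Vip was higher, and Gad1, Slc32a1, Sst and Pvalb were lower, by 1.39 times for Gad1, 1.48 for Sst and 1.45 for Pvalb (edgeR adjusted p = 0.044, 0.029 and 0.046). Among 25 glutamate and GABA receptor genes 1 was higher and 1 lower, and Gria2 stood at 5.09 against 4.44 (adjusted p = 0.53). Among 19 immediate early genes Egr2 was called (3.46-fold, adjusted p = 0.021). Camk2a lost its call with each of the 4 slices left out (adjusted p of 0.055 to 0.13), Gad1 and Pvalb with each but deleter slice 2 (up to 0.2 and 0.21), Sst without WT slice 2 or deleter slice 1 (up to 0.11) and Egr2 without WT slice 2 or deleter slice 2 (up to 0.11), while Nefh kept it in 4 of 4 fits.

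Beside the largest core group more of the excitatory neuron genes differed. There, 20 of 26 excitatory genes were lower and none higher, with a median log2 difference of -0.43, when 8.17% of all genes tested were lower. Snap25 was lower by 0.42 on the log2 scale (adjusted p = 0.00038) and Stmn2, a neuronal tubulin regulator, by 0.42 (adjusted p = 0.00097), both by edgeR.

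Of 25 measured myelin genes, edgeR called 0 in either direction (1 higher and 6 lower at an unadjusted p under 0.05, and 0 by DESeq2), with a median log2 difference of -0.31. Mbp, myelin basic protein, was at 18.7, 44.5, 26.9 and 20.3 UMIs per 10000 in the ring and at 42.5, 27.4, 23.6 and 43.9 in distant tissue (log2 -0.41, SE 0.26, adjusted p = 0.48). It was lower in the ring of WT slice 1 and deleter slice 2 and higher in the other 2 slices. Beside the largest core group 9 of the 25 were higher and none lower, when 10.6% of all genes were higher there, Bcas1, a gene of newly myelinating cells, among them (log2 0.46, edgeR adjusted p = 0.012). Of 15 genes of oligodendrocyte precursors and differentiating cells, edgeR called 0 over the whole ring (1 at an unadjusted p under 0.05, 0 by DESeq2) and 8 beside the largest core group, all higher. The direction was opposite with a core of at least 10 Col1a1 UMIs per 10000, a setting with other ring and distant spots. There Mbp (log2 -1.25, edgeR adjusted p = 0.0051), Mobp (-1.19, 0.005), Olig1 (-0.75, 0.0044) and Bcas1 (-1.01, 0.0071) were called lower, when 412 of all 12772 genes tested were lower.

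Vessel genes showed small differences. Of 17 endothelial genes only Vwf, which encodes von Willebrand factor, was called (1.91-fold higher, log2 0.94, SE 0.21, edgeR adjusted p = 0.037), and it lost its call without WT slice 2, deleter slice 1 or deleter slice 2 (adjusted p up to 0.14). Of 13 pericyte and smooth muscle genes edgeR called 0 (2 higher and 1 lower at an unadjusted p under 0.05, 0 by DESeq2). The summed endothelial list was 10.6 to 11.4 UMIs per 10000 in the ring and 8.67 to 12.2 in distant tissue.

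The transforming growth factor beta (TGF-beta) pathway, on which the study turns, was measured through 20 genes, of which 2 were higher in the ring and none lower (median log2 0.41). Tgfbr2, the type II receptor, was at 0.403, 0.366, 0.433 and 0.313 UMIs per 10000 in the ring and 0.25, 0.162, 0.13 and 0.197 in distant tissue. All ring values lay above all distant values (1.95-fold, log2 0.96, SE 0.18, edgeR adjusted p = 0.018). Itgb5, a subunit of an integrin that can activate latent TGF-beta, was also 1.95-fold higher (log2 0.96, SE 0.20, adjusted p = 0.028). Tgfbr2 lost its call without WT slice 2 or deleter slice 1 (adjusted p = 0.076 and 0.069), and Itgb5 without WT slice 2, deleter slice 1 or deleter slice 2 (up to 0.12). The ligand Tgfb1 was higher in 4 of 4 slices without passing (log2 1.12, SE 0.34, adjusted p = 0.11), and another ligand, Tgfb2, did not pass either (log2 -0.36, SE 0.30, adjusted p = 0.61). By edgeR, Tgfb1 was called higher against the cleared distant tissue (log2 1.45, adjusted p = 0.0093) and near deep core spots (2.08, 0.026). It was not called with a core of at least 10 Col1a1 UMIs per 10000 (0.24, 0.89) or at 3 to 8 layers (0.80, 0.59). Itgb8, another activating integrin subunit, was at 0.503, 0.59, 0.641 and 0.436 against 0.623, 0.448, 0.373 and 0.451 (log2 0.12, SE 0.16, adjusted p = 0.77), higher in 2 of 4 slices. Cthrc1, a myofibroblast gene and the driver of the deleter allele, was at 0.114, 0.153, 0.0393 and 0.0982 in the ring (log2 0.16, SE 0.26, adjusted p = 0.83), and Cxcl12, a chemokine, at 0.467 against 0.39 on average (log2 0.24, adjusted p = 0.44).

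Genes of lipid handling went both ways. Of 18 lipid genes 3 were higher and 3 lower. Those higher were Apoe, Plin2, which coats lipid droplets (2.72-fold, edgeR adjusted p = 0.0089), and Abca1, a cholesterol exporter (2.14-fold, adjusted p = 0.006), and those lower were the cholesterol synthesis genes Msmo1, Hmgcs1 and Sqle, with Hmgcs1 1.52-fold lower (adjusted p = 0.021). Hmgcs1 kept its call only without WT slice 1 (adjusted p up to 0.095 in the other 3 fits with a slice left out). Of 13 iron and haem genes 2 were higher, Cp, the iron oxidase ceruloplasmin (3.18-fold), and Ftl1. Ftl1, the ferritin light chain, was 1.64-fold higher (log2 0.71, SE 0.11, adjusted p = 0.0072; 0.055 without WT slice 2). Of 13 brain proteoglycan genes Cd44 alone was called, and the core proteins Ncan (log2 -0.01, adjusted p = 0.98) and Cspg5 (log2 0.28, adjusted p = 0.14) did not pass. Of 15 genes linked to axon growth, Atf3, an injury-induced transcription factor, and Marcks were higher (3.24-fold and 1.39-fold, adjusted p = 0.043 and 0.018). Atf3 kept its call only without deleter slice 2 (adjusted p up to 0.19) and was at -0.22 on the log2 scale with a core of at least 10 Col1a1 UMIs per 10000, and Marcks kept it only without WT slice 1 (up to 0.092).

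Fibroblast and meningeal genes belong to the cells whose collagen chose the regions, so their values are a description, with 9 of 24 fibroblast and 5 of 11 meningeal genes called higher. Col1a2 was at 0.64, 0.766, 1.24 and 1.33 UMIs per 10000 in the ring and 0.294 to 0.401 in distant tissue, and Col3a1 at 0.54 to 0.731 against 0.117 to 0.262. Summed over the fibroblast list, the ring held 10.3 to 12.1 per 10000, distant tissue 5.74 to 7.84 and the core 197 to 250.1. The meningeal list was at 16.0 to 26.2 in the ring, 8.49 to 18.3 in distant tissue and 62.6 to 119 in the core. These genes moved with the glial and phagocyte genes, and their part in those differences was not tested. With only ring and distant spots that had no Col1a1 UMI at all, edgeR called 450 of 11938 genes, 244 higher and 206 lower. These held 157 of the 322 higher and 119 of the 164 lower genes.

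In a comparison with the core, the ring stood between core and distant tissue. Of 13244 genes tested, 8421 (63.6%) differed between ring and core, with 4098 higher and 4323 lower in the ring. Among the 322 genes that were higher in the ring than in distant tissue, 236 were lower in the ring than in the core, 71 were higher than in the core and 15 were not called. C3 was at 4.56 to 8.02 UMIs per 10000 in the core (3.97-fold above the ring, log2 of ring over core -1.99, SE 0.23, edgeR adjusted p = 1.5e-06), and Gfap at 8.7 to 12.2 (1.9-fold above, log2 -0.93, SE 0.13, adjusted p = 1.2e-05). Of the phagocyte genes, Gpnmb was 15.5-fold (log2 -3.96, adjusted p = 1.8e-13) and Lyz2 15.5-fold (log2 -3.95, adjusted p = 5.4e-12) lower in the ring than in the core. In the list counts, 29 of 32 reactive astrocyte genes and 27 of 28 phagocyte genes were lower in the ring than in the core, when 32.6% of all genes were.

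Neuronal genes ran the other way. All 26 excitatory neuron genes and all 25 receptor genes were higher in the ring than in the core, when 30.9% of all genes were. Snap25 was at 25.7 to 33.4 UMIs per 10000 in the ring and at 4.77 to 7.81 in the core (4.96-fold, log2 2.31, SE 0.13, edgeR adjusted p = 6.3e-10). Calb1 (6.33-fold), Dpp10 (5.96-fold), Lamp5 (5.71-fold) and Lin7b (5.62-fold) were among the genes named for their size, with adjusted p of 8.3e-08 or less. Of 23 homeostatic astrocyte genes 7 were higher and 7 lower, near the shares of all genes (30.9% higher and 32.6% lower). Among them were Slc1a2 (1.99-fold higher in the ring, adjusted p = 2.9e-07), Aldoc (1.74-fold higher, adjusted p = 1.3e-06) and Aqp4 (1.74-fold lower, adjusted p = 3.6e-06).

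Within the ring, levels were followed by distance from the nearest core spot. The ring held 105 spots at 1 step, 181 at 2 steps and 207 at 3 steps. The reactive astrocyte list averaged 71.2 UMIs per 10000 in the core and 40.1, 27.5 and 20.4 at 1, 2 and 3 steps, before 9.84 to 12.9 at 6 steps and beyond. This fall from 1 to 3 steps held in WT slice 1 (46.3 to 16.8), WT slice 2 (52.8 to 14.4) and deleter slice 2 (32.4 to 13.3), but the list was at 28.9, 40.0 and 37.0 in deleter slice 1. The phagocyte list averaged 697 in the core and 252, 192 and 158 at 1, 2 and 3 steps, again with deleter slice 1 out of order (193, 243 and 230). Between 1 and 3 steps edgeR called 1 of 22 reactive astrocyte genes, higher at 1 step (15 higher at an unadjusted p under 0.05, 2 by DESeq2), and 0 of 26 phagocyte genes (23 higher unadjusted, 3 by DESeq2). Of all 7650 genes tested between these steps, 599 were higher at 1 step and 452 lower at an unadjusted p under 0.05 by edgeR. The excitatory neuron list went the other way, from 38.5 in the core to 136, 173 and 190 at 1, 2 and 3 steps.

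Homeostatic astrocyte genes peaked next to the core. Their summed level was 74.6 UMIs per 10000 at 1 step, against 53.3 in the core, 57.9 at 2 steps and 55.5 at 3 steps, and each of the 4 slices had its highest value at 1 step (68.7, 75.7, 82.9 and 71.2). Slc1a3 was at 6.26, 6.82, 6.97 and 5.51 at 1 step and 3.71, 4.21, 4.93 and 3.04 at 3 steps, without overlap (log2 0.76, SE 0.12, edgeR adjusted p = 0.015). Of 7650 genes tested between 1 and 3 steps, 39 (0.51%) passed, 29 (0.379%) of them higher at 1 step. Of the homeostatic astrocyte list 4 of 21 were higher and none lower. Id3, a regulator of transcription that astrocytes induce after injury, was 2.4 against 1.05 on average (log2 1.20, SE 0.17, edgeR adjusted p = 0.0084).

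Ptgds, a prostaglandin synthase of the meninges, was at 37.9, 41.7, 21.7 and 22.4 at 1 step and 13.3, 17.8, 9.88 and 14.3 at 3 steps (log2 1.20, SE 0.13, edgeR adjusted p = 0.00058). Gpx3, Col3a1 and Col1a2 were also higher at 1 step by 1.35, 1.32 and 1.31 on the log2 scale, and 3 of 4 meningeal genes were called higher. On the neuronal side Neurod6 (log2 -1.47), Tmem59l (-0.82), Oxr1 (-0.74), Chgb (-0.71) and Stmn3 (-0.62) were lower at 1 step, with adjusted p of 0.018 to 0.05 by edgeR. Gfap (log2 1.03, SE 0.28, adjusted p = 0.11), Lcn2 (log2 1.73, SE 0.42, adjusted p = 0.079) and C3 (log2 1.47, SE 0.45, adjusted p = 0.15) did not pass between 1 and 3 steps. The count of 39 moved with single slices, with 0 genes without WT slice 1, 4 without deleter slice 2, 12 without WT slice 2 and 283 without deleter slice 1.

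**Figure D3:**
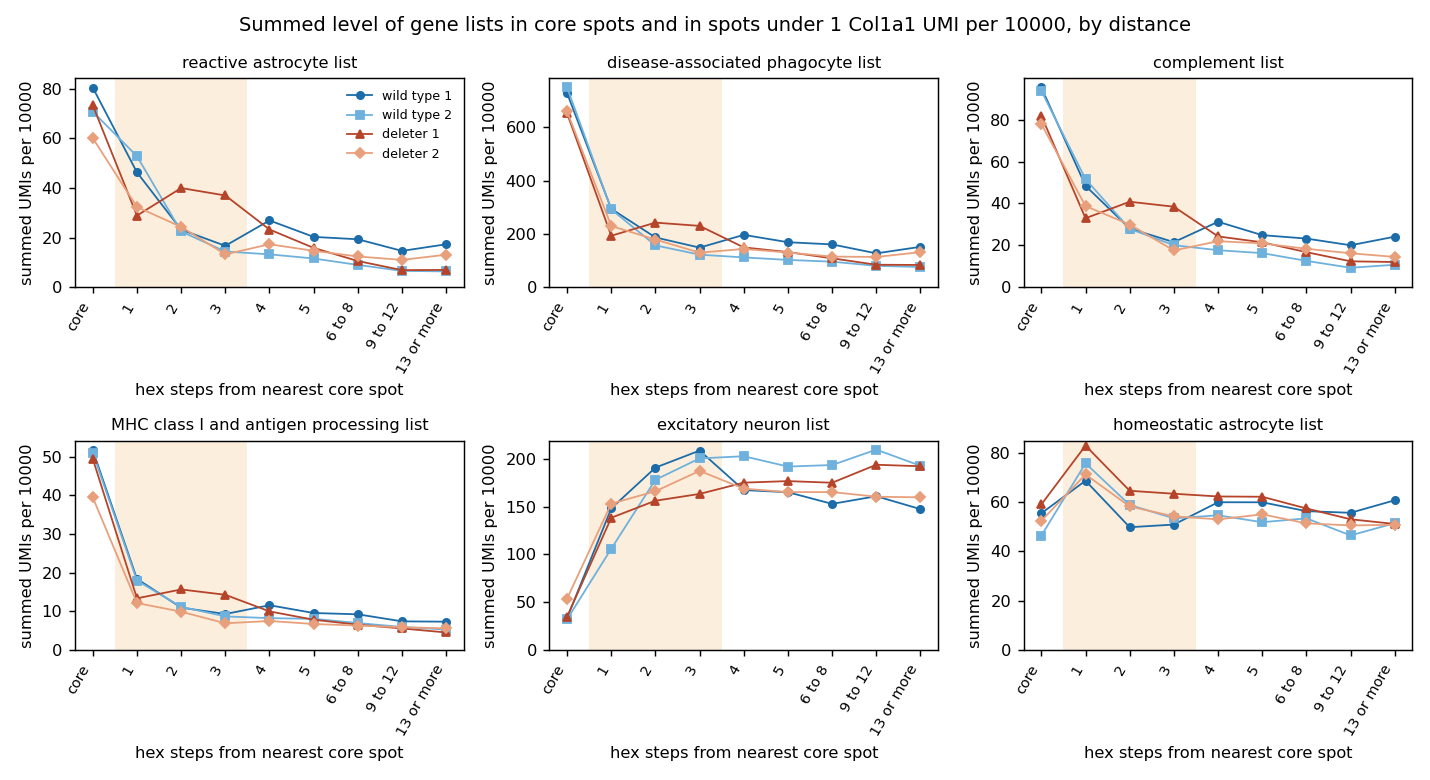
Summed UMIs per 10000 of 6 gene lists in core spots and in spots under 1 Col1a1 UMI per 10000, by hexagonal steps from the nearest core spot, with 1 line per slice and the ring shaded. Reactive astrocyte, phagocyte, complement and class I lists fall from 1 to 3 steps in 3 slices and not in deleter slice 1, the excitatory neuron list rises over these steps, and the homeostatic astrocyte list has its highest value at 1 step.

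Glial list levels were also compared between the ring beside the largest core group and the rest of the ring. Beside the largest group, the summed reactive astrocyte list exceeded distant tissue of the same slice by 2.04, 2.05, 1.91 and 2.01 on the log2 scale, almost the same in all 4 slices. In the other ring spots the same ratio was -0.64, 1.35, 2.08 and -0.36. The rest of the ring thus stood below distant tissue in WT slice 1 and deleter slice 2 and well above it in WT slice 2 and deleter slice 1. In deleter slice 1 it also slightly exceeded the ring beside the largest group. The split of that slice was sensitive to the UMI limit. With at least 2000 UMIs per spot its core went from 193 to 191 spots, and its ring spots beside the largest group from 57 to 36. The phagocyte list repeated the pattern of the reactive astrocyte list, with 1.62, 1.24, 1.16 and 1.41 beside the largest group and -0.35, 0.66, 1.23 and -0.21 elsewhere. Complement was at 1.76, 1.62, 1.36 and 1.60 beside the largest group and at -0.49, 1.23, 1.34 and 0.00 elsewhere, so that deleter slice 2 there stood level with distant tissue.

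Single genes gave the same picture in levels. C3 was at 6.93 UMIs per 10000 beside the largest group and 0.597 in the other ring spots of WT slice 1, at 0.611 and 0.273 in WT slice 2, at 2.05 and 3.1 in deleter slice 1 and at 5.01 and 0.241 in deleter slice 2. Gpnmb was at 4.08, 1.52, 1.14 and 2.2 beside the largest group and at 0.561, 0.296, 0.947 and 0.433 elsewhere, higher in 4 of 4 slices (log2 1.99, SE 0.35, edgeR adjusted p = 0.1). Mbp was at 31.5, 51.5, 33.7 and 43.5 against 15.2, 37.9, 21.4 and 12.1 (log2 1.05, SE 0.21, adjusted p = 0.1). Rasgrf2 was lower beside the largest group in 4 of 4 slices (0.974, 1.59, 1.3 and 0.608 against 1.98, 2.57, 1.86 and 1.67; log2 -0.83, SE 0.17, adjusted p = 0.11).

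Across all 9616 genes tested between these parts of the ring, edgeR called 0 (0%), with 1537 at an unadjusted p under 0.05, and DESeq2 called 36. Without deleter slice 1, edgeR called 459, of which 405 were higher beside the largest group. Of 26 reactive astrocyte genes 20 were higher at an unadjusted p under 0.05 and none lower, and of 25 myelin genes 24 were higher and none lower. Of all 9616 genes, 989 were higher and 548 lower at that unadjusted p. This comparison was added after the map had been seen.

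**Figure D4:**
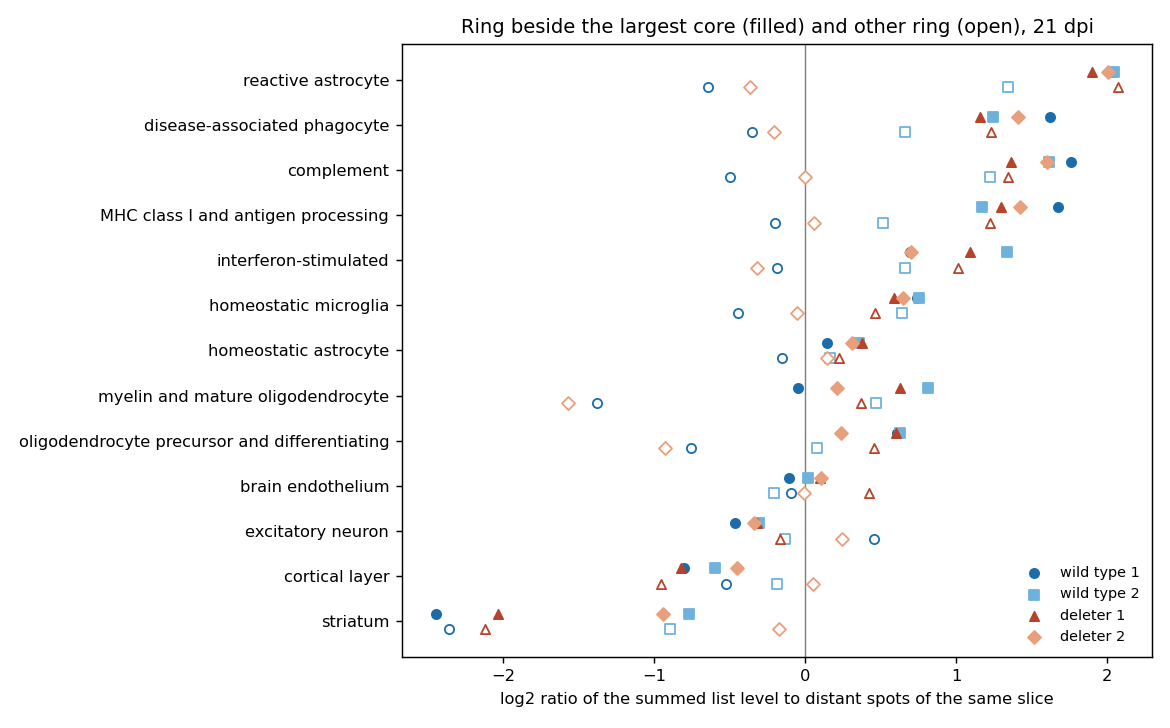
Log2 ratio of the summed level of each gene list to distant tissue of the same slice, with filled symbols for ring spots within 3 steps of the largest core group and open symbols for the other ring spots, and 1 colour and symbol per slice. Filled symbols of the reactive astrocyte list lie between 1.91 and 2.05, and open ones between -0.64 and 2.08.

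Genotypes were compared through the difference in ring effect, that is, deleter slices minus WT slices in the log2 ratio of ring to distant tissue (for single slices, of UMIs per 10000 plus 0.05). Of 12904 genes edgeR called 0 (0%), with 221 at an unadjusted p under 0.05 and the smallest adjusted p at 0.9999, and DESeq2 also called 0. For C3 the ratio was 1.84 and 2.35 in the WT slices and 3.27 and 2.5 in the deleter slices (difference 0.82, SE 0.39). For Gfap it was 0.39 and 3.31 against 2.36 and 0.98 (difference -0.15, SE 0.83), so the slices of a genotype differed more from each other than the genotypes did. For Calb1 it was 1.45 and 1.42 against 1.48 and 1.52 (difference 0.05, SE 0.20). Over the 24 genes named by size, differences ran from -1.16 to 1.34 with SEs of 0.196 to 0.834, and the SE of single genes limits what 2 slices per genotype can show.

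The ring at 21 dpi was also set beside the ring at 7 dpi, found by the same rule in 2 WT slices of another capture area, with 232 ring spots. Time and capture area cannot be told apart, and the 7 dpi rings differed in position, with a median of 3 layers under the edge in slice 1 and 11 in slice 2. Of their ring spots, 17.2% in slice 1 and 74.1% in slice 2 lay within 3 steps of the largest core group. At 21 dpi this share was 19.2%, 45.8%, 40.7% and 24%. Of the 7 dpi core spots, 92.0% in slice 1 and 31.1% in slice 2 lay in the outer 2 layers. The mitochondrial share was 6.67% and 9.01% in the 7 dpi rings, against 10.2% and 12.8% in distant tissue. The paper places its early fibroblast cluster in perilesional regions at 7 dpi and its late one in the lesion core at 21 dpi. Whether the rings of both days held the same kind of tissue was not tested. The part of these positions in the differences between days was not tested either. Of 13468 genes, 847 (6.29%) differed in their ring effect, with 271 (2.01%) higher and 576 (4.28%) lower at 21 dpi. The fit held all 4 slices at 21 dpi, both genotypes included. Of 28 disease-associated phagocyte genes 18 were lower at 21 dpi and none higher, and of 16 homeostatic microglia genes 9 were lower and none higher.

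Spp1 shows the size of this shift. It was at 64.9 and 40.4 UMIs per 10000 in the ring at 7 dpi against 4.47 and 1.3 in distant tissue, and averaged 1.96 in the ring at 21 dpi. Its log2 ratio of ring to distant tissue was 3.84 and 4.91 at 7 dpi and 1.71 to 3.06 at 21 dpi (difference -2.25, SE 0.34, edgeR adjusted p = 0.0041). Gpnmb (difference -2.14, adjusted p = 0.0052), Lpl, a lipoprotein lipase (-2.43, adjusted p = 0.0041), Cd5l, a macrophage survival protein (-2.49, adjusted p = 0.0047), Mmp12, a macrophage elastase (-2.71, adjusted p = 0.031), Ucp2 (-2.51, adjusted p = 0.011) and Hmox1, haem oxygenase (-2.89, adjusted p = 0.011), were likewise lower in ratio at 21 dpi. Of the 10 genes named for this comparison by size (Cd5l, Chil1, Hmox1, Lpl, Mmp12, Ppfia2, Ptgds, Sphkap, Ucp2 and Wipf3), Chil1, Ppfia2, Sphkap and Wipf3 lost their call without 7 dpi slice 1, Chil1, Hmox1, Lpl, Ucp2 and Wipf3 without 7 dpi slice 2, and Chil1, Lpl, Mmp12, Sphkap and Ucp2 with distant spots at most 10 layers deep. Mmp12 also lost it without WT slice 1, WT slice 2 or deleter slice 2, and Wipf3 without WT slice 1. All 10 kept their direction in these settings. For C1qa the ratio was 2.32 and 2.68 at 7 dpi and 0.99 to 1.86 at 21 dpi (difference -1.19, SE 0.24, adjusted p = 0.016).

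Reactive astrocyte genes were called in few cases, 1 of 32 higher and 2 lower. C3 was at 0.445 and 0.18 UMIs per 10000 in the 7 dpi rings and averaged 1.63 at 21 dpi, while its ratio to distant tissue did not pass (difference 0.40, SE 0.49, edgeR adjusted p = 0.69). Gfap (0.65, SE 0.57, adjusted p = 0.55), Lcn2 (-0.27, SE 0.54, adjusted p = 0.81), Vim (-0.38, SE 0.48, adjusted p = 0.69) and Serpina3n (-0.31, SE 0.43, adjusted p = 0.73) did not pass either. Chil1, a chitinase-like protein of reactive astrocytes, was the member that was higher, with ratios of -0.55 and -0.57 at 7 dpi and 0.77 to 2.61 at 21 dpi (difference 2.35, SE 0.49, adjusted p = 0.017).

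Homeostatic astrocyte genes were higher in ratio at 21 dpi, with 9 of 23 called higher and none lower. Slc1a2 was at 12.3 and 11.2 in the ring and 20.2 and 18.9 in distant tissue at 7 dpi, ratios of -0.71 and -0.75 that lay below those of -0.23 to 0.13 at 21 dpi (difference 0.61, SE 0.14, edgeR adjusted p = 0.024). Aldoc did the same (ratios -0.79 and -0.74 at 7 dpi, -0.16 to 0.27 at 21 dpi, difference 0.79, SE 0.15, adjusted p = 0.011), and of 25 glutamate and GABA receptor genes 9 were higher and none lower. Ptgds (2.17, adjusted p = 0.0061), Sphkap (1.56, adjusted p = 0.0078), Ppfia2 (1.53, adjusted p = 0.0029) and Wipf3 (1.86, adjusted p = 0.025) were higher in ratio too. The count of 847 fell to 99 and 126 when either 7 dpi slice was left out, to 477 without WT slice 1 and to 394 without deleter slice 2.

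**Figure D5:**
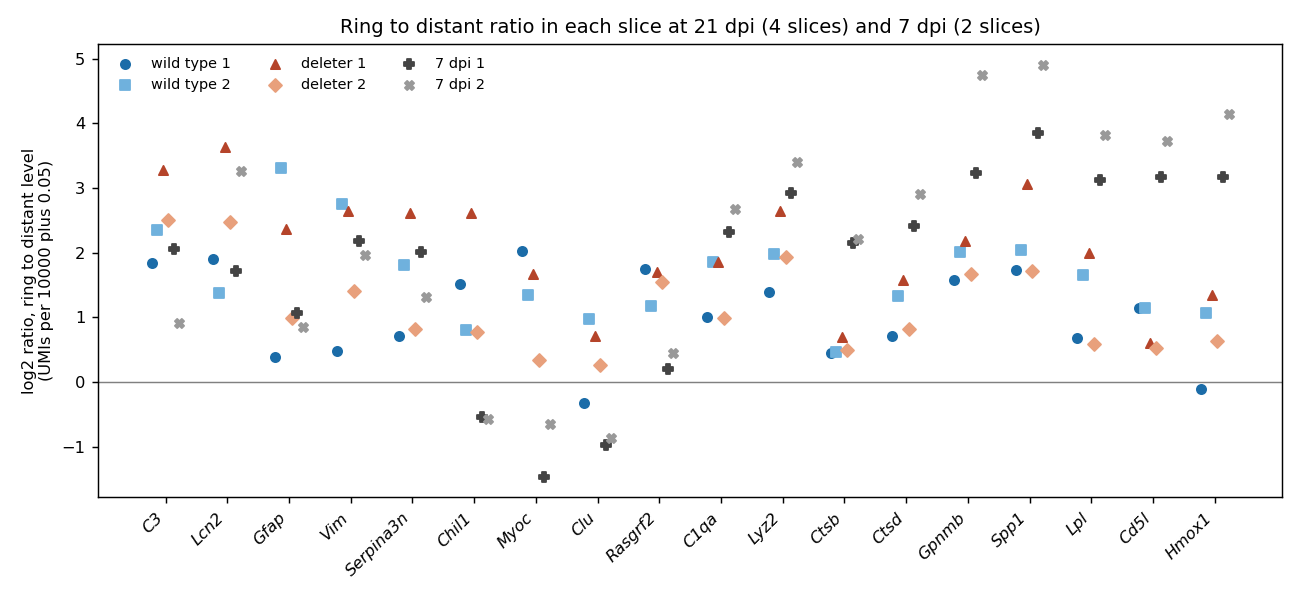
Log2 ratio of ring to distant level of named genes (UMIs per 10000 plus 0.05) in each of the 4 slices at 21 dpi in colour and the 2 slices at 7 dpi in grey. Ratios of Spp1, Gpnmb, Lpl, Cd5l, Ctsd and Hmox1 are higher in both 7 dpi slices than in any slice at 21 dpi, those of Chil1, Myoc, Clu and Rasgrf2 are lower, and those of C3, Lcn2, Gfap, Vim and Serpina3n overlap.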

How the data were processed

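Spots of mouse brain slices on Visium capture areas were sequenced, and the deposited values are raw UMI counts per gene and spot over 32285 genes, which the authors made with Space Ranger 2.0.0 against mm10 according to the submitters' processing notes. Each capture area held 2 slices, taken here as the connected pieces of tissue, and each slice came from 1 mouse. Counts were summed per slice and region, since spots of a slice are not replicates, and p-values measure the spread between slices. The spot-wise MAST test of the study's methods was not used for that reason. Ring and distant sums of a slice share a mouse, so slice was a block in edgeR 4.0.16 (quasi-likelihood F test, TMM, filterByExpr, Benjamini-Hochberg at 0.05) under R 4.3.3, with a region by genotype or region by time term for the interactions. DESeq2 1.42.0 was an alternative, beside other limits for core, ring, distant tissue and depth, thinned spots and each slice left out. Python 3.11.15, numpy 2.4.6, pandas 2.3.3, scipy 1.17.1 and matplotlib 3.10.9 served for the rest, and the fits were tested on simulated data. Distant spots cleared of other regions' markers were those whose summed marker level did not exceed the 90 percentile of ring spots of their slice.

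The members and the 32 gene lists (570 entries) were chosen with earlier results of these data known. Named genes were the 12 with the largest change in each direction with the same sign in 4 slices and at least 1 UMI per 10000 in the higher region, up to 4 members of each list with most UMIs, the 5 largest in each direction of the other fits, and Itgb8, Tgfb1, Tgfb2, Tgfbr2, Cthrc1, Cxcl12 and Col1a1. Other genes in the text, among them members listed with a count and Steap4, Amigo2, C3ar1, Tap1, Trbc2 and Ighm, were named after their values had been seen. Some results that the naming rule covers are not reported here. Gene positions are those of GENCODE vM21 on GRCm38. Intervals and floors cover counting error only.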

Additional observations from a re-analysis of the deposited data

Results flagged for a closer look

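Of 153 values checked for a slice that stood apart from the other 3, 5 were found, and chance gives about 1 in 20 such groups. The log2 ratio of ring to distant tissue was 2.17 for Cp in deleter slice 1 (0.98 to 1.06 in the others) and -1.34 for Nefh in WT slice 2 (-0.61 to -0.49). WT slice 1 stood apart for Aldoc (-0.157, others 0.22 to 0.27), Mgp (0.464, others 1.40 to 1.54) and Abca1 (0.41, others 1.27 to 1.40).

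The ring effect differed between 21 and 7 dpi in 847 genes, by the interaction test of edgeR. It was lower at 21 dpi for the phagocyte and lysosome genes Spp1 (-2.25), Gpnmb (-2.14), Lyz2 (-1.28), Ctsd (-1.67), Ctsb (-1.77), Lpl (-2.43), Cd5l (-2.49) and Mmp12 (-2.71), for C1qa (-1.19), C1qb (-1.22) and C1qc (-1.26), and for Hmox1 (-2.89), Ftl1 (-2.09), Ucp2 (-2.51), Fn1 (-1.22), B2m (-0.868), Itgb5 (-1.18) and Itgav (-1). It was higher at 21 dpi for Chil1 (2.35), Ptgds (2.17), Wipf3 (1.86), Sphkap (1.56), Ppfia2 (1.53), Clu (1.21), Slc1a2 (0.612), Aldoc (0.789), Myoc (3.24) and Rasgrf2 (1.17). Time and capture area cannot be told apart, and the rings also differed in their share beside the largest core group.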

How the results depend on the processing

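Ring and distant tissue differed in 486 genes. This count was 148 to 531 with 1 slice left out, 1089 with no filter on low counts, 253 in WT slices only, 229 in deleter slices only, 808 with a core of at least 10 per 10000, 2361 with the ring of the largest core group, 82 with spots thinned to 1000 UMIs, 120 with distant spots at most 10 layers deep, 1550 with distant spots cleared of other regions' markers and 249 with both regions 3 to 8 layers deep. Without the replicate block, that is, without pairing the regions of a slice, it was 212 (172 higher and 40 lower). It stayed within 1.5 times under DESeq2 (361), with at least 2000 UMIs per spot (485), with distant spots at 6 to 10 steps (528), without the outer 2 layers (717), with deep core spots (441) and with no Col1a1 UMI (450). A similar count need not hold the same genes. With deep core spots 391 genes were higher and 50 lower, and only 12 of the 164 lower genes were called again. The count between 1 and 3 steps (39) was 261 with no filter and 0 to 283 with 1 slice left out. The genotype count (0) was 17 with no filter and 0 to 7 with 1 slice left out. The count between 21 and 7 dpi (847) was 1548 with no filter, 380 by DESeq2, 265 with distant spots at most 10 layers deep and 99 to 965 with 1 slice left out. The count between the ring beside the largest core group and the other ring (0) was 641 with no filter, 36 by DESeq2 and 0 to 459 with 1 slice left out.

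Directions turned for Fth1 (0.37), Egr1 (-0.42), Olig1 (0.33) and Bcas1 (0.46) with the ring of the largest core group, and for H2-Aa (-0.091), Igkc (-0.83), Igha (-1.13) and Atf3 (-0.22) with a core of at least 10 per 10000, all as log2 ring over distant. With deep core spots they turned for Rasgrf2 (-0.36), Lamp5 (-0.61), Cux2 (-0.37), Vip (-1.42), Camk2a (-0.17) and Dpp10 (-0.50), with distant spots at most 10 layers deep for Penk (0.10), and with cleared distant spots for Penk (0.55), Pde10a (0.13), Ppp1r1b (0.19), Pde1b (0.045), Ttr (1.72), Kl (1.5) and Clic6 (1.83). The cause was not tested. Sign changes of genes called under neither setting were not counted. Of the 151 genes of the text tested, 71 were called higher and 23 lower in the main fit. Under DESeq2, 137 kept their status, which counts genes called in neither fit as well as genes called alike in both. Without the block, where not all of them were tested, 104 did and 44 lost their call. With distant spots at most 10 layers deep 94 did, 56 lost their call and 1 turned direction. With a core of at least 10 per 10000, 85 did, 48 lost their call, 14 gained one and 4 turned direction.

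The limits are the number of slices, the position of the ring nearer the tissue edge than distant tissue, and spots that mix cells. Genotype and time each coincide with a capture area. Of 14 T cell genes, 3 passed the filter on low counts between ring and distant tissue and 9 between ring and core.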
